A study of Mus musculus with 30 samples.

Results

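The subventricular zone (SVZ) of mice that carry the NestinTK transgene was compared with that of wild-type mice when both had received phosphate-buffered saline (PBS) and no drug. The comparison rests on 7 of the 30 libraries of the series, 4 labelled NestinTK+ PBS and 3 labelled NestinTK- PBS, with 1 library per mouse. Members are the genes with more than 1 CPM (counts scaled to the library total) in 3 or more of the 7 libraries, which were 14661 of the 53278 genes of the count table. NestinTK+ mice express thymidine kinase under the second intron enhancer of the rat Nestin gene, NestinTK- mice are their wild-type littermates, and both are of the C57Bl/6 strain. All 7 mice received PBS through a subcutaneous minipump for the period in which other mice of the study received ganciclovir (GCV). The study's methods describe young adult animals of both sexes, while all 7 SVZ libraries used here had 2037 or more counts of Xist and at most 11 counts of Y-linked genes, as libraries of female mice do. The other SVZ libraries, 5 NestinTK+ GCV and 3 NestinTK- GCV, and the striatum libraries of the same 7 PBS mice are used here only for comparison. Libraries are named T1 to T4 for the NestinTK+ PBS mice and W1 to W3 for the NestinTK- PBS mice, in the order of the labels.

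The SVZ lines the lateral ventricle and keeps neural stem cells in the adult. Activated stem cells express the intermediate filament Nestin and give rise to transit-amplifying cells that divide fast, and these give rise to neuroblasts that migrate to the olfactory bulb. A thymidine kinase of viral origin phosphorylates ganciclovir, and the product stops DNA synthesis in dividing cells, so that the transgene is meant to act only where the drug is given. The comparison under PBS therefore asks what the transgene does to the transcriptome by itself. The count table has no row for the transgene, so that its own expression could not be checked, and the row of Nes counts the endogenous gene. The labels call the samples neural precursor cells, while the protocol describes dissected tissue. Markers of spiny neurons, the projection neurons of the striatum, summed to 11619 to 17110 CPM in the 7 libraries. Genes of the neuroblast list summed to 1088 to 2123 CPM, so that the libraries hold tissue beyond the precursors. All 22 genes of that list also had more than 1 CPM in 3 or more striatum libraries of these mice, so that the list is not particular to the SVZ.

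Total counts were 12.6 to 16.6 M in NestinTK+ libraries and 8.95 to 21.1 M in NestinTK- libraries, and mitochondrial transcripts held 9.17% to 12.9% and 9.55% to 11.5% of them. For these and for the number of genes detected, two-sided exact permutation tests over the 35 splits of the mice gave p of 0.629 to 0.800, in a design whose smallest p is 0.0571 and which cannot pass 0.05. Libraries T1, W1 and W2 stood apart from the others in tissue content. Ttr, the main transcript of the choroid plexus, held 9.83%, 4.49% and 9.88% of their counts and at most 0.0789% in the other 4 (exact permutation test between genotypes, p = 0.514). Markers of choroid plexus summed to 113222, 52752 and 115128 CPM in T1, W1 and W2 and to 392.1 to 1138 CPM elsewhere. The mean level of genes of meningeal fibroblasts, of interferon response and antigen presentation and of the IGF axis was also higher in these 3 libraries than in any of the other 4, and so was, by a smaller margin, that of ependymal genes and of genes of the p53 response and apoptosis. Across genes, log2 CPM of T1 and W2 had a correlation of 0.915, above that of every pair of mice of the same genotype (0.748 to 0.839). Results that rest on such genes are given below with and without the 3 libraries. Without them W3 is the only NestinTK- library, and W3 also stood apart. It had the fewest counts (8.95 M) and the fewest genes detected (16632). On the first principal component, the axis of largest spread among the 7 libraries with 30.7% of the variance, W3 lay at 175 and the others at -61.4 to 4.32.

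**Figure D1:**
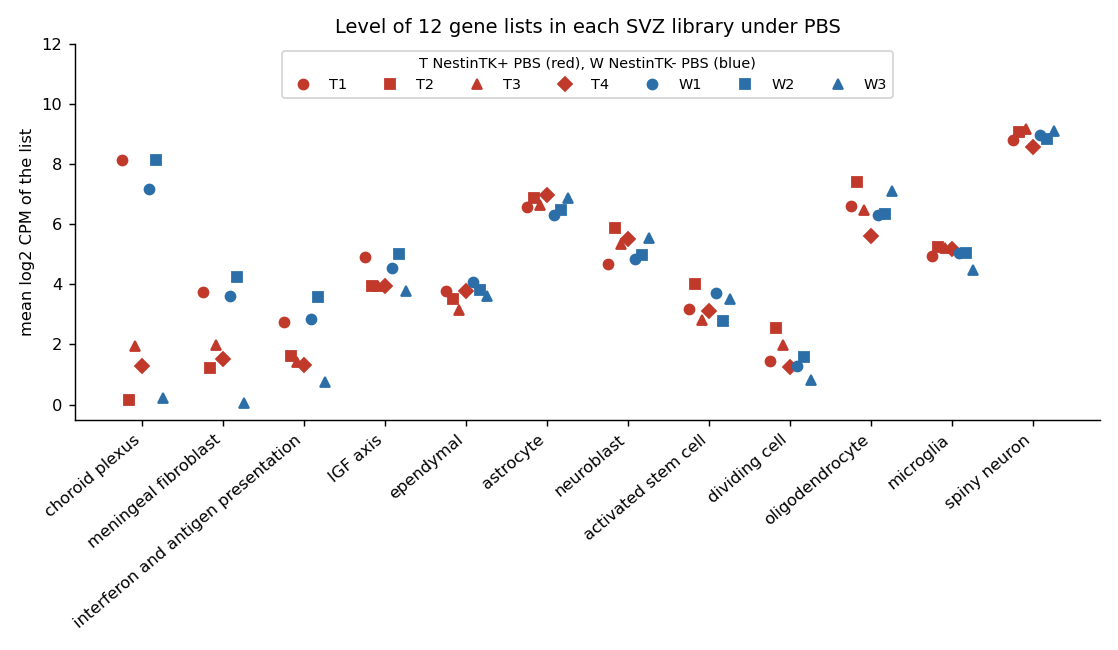
Mean log2 CPM (y axis) of the tested genes of 12 lists (x axis) in each of the 7 SVZ libraries, 4 NestinTK+ PBS (T, red) and 3 NestinTK- PBS (W, blue), with 1 point per library. In the choroid plexus list T1, W1 and W2 lie at 8.13, 7.18 and 8.13 and the others at 0.15 to 1.95, while spiny neuron genes lie at 8.59 to 9.19 in all libraries.

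Few genes were called between NestinTK+ and NestinTK- mice under PBS, and after correction for the number of genes 0 remained with edgeR and limma-voom and 3 with DESeq2. With the thresholds of the study, an unadjusted p not above 0.01 and a change of 2-fold or more, 28 genes (0.191% of those tested) were higher and 21 (0.143%) lower in NestinTK+ mice. At an adjusted p under 0.05 the quasi-likelihood test of edgeR, adjusted by Benjamini-Hochberg over all genes, called 0, with a smallest adjusted p of 0.999977. Without adjustment 438 genes, or 2.99%, had a p under 0.05 and 58, or 0.396%, a p not above 0.01, both below the shares of 5% and 1% that p-values spread evenly would give. limma-voom also called 0 genes at an adjusted p under 0.05 (448 at a p under 0.05), and DESeq2 called 3, Cpt1b (adjusted p = 0.00103), Cebpd (0.00391) and Fhdc1 (0.0361), with 599 at a p under 0.05. The median log2 fold change over all genes tested was -0.0060. The biological coefficient of variation common to all genes, which measures the spread among mice of a genotype, was 0.752 in the SVZ, against 0.257 in the striatum of the same mice, which was sequenced with another kit.

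The counts of called genes depended on single libraries. Without W2 the higher genes numbered 171, without T4 17, without T1 the lower genes numbered 92, and without T2 10. The labels number all 3 NestinTK- mice and T3 in a series that starts with 34, and T1, T2 and T4 in a series that starts with 40. Number series and genotype therefore overlap, and what this does to the results was tested only by adding the series as a term. With it, 8 higher and 20 lower genes were called over the 7 libraries. Of the 24 genes named below, only Cebpd, Panct2, Leng8 and Naaa kept their call in that fit. Over all 15 SVZ libraries only Cebpd, Myo1f, Zcchc11 and Leng8 kept it.

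The CPM values of the 4 NestinTK+ and 3 NestinTK- libraries did not overlap in 540 genes that were higher (3.68% of those tested) and 212 that were lower (1.45%). With CPM scaled by TMM factors, which correct for the share of each library that a few transcripts take, these numbers were 444 (3.03%) and 297 (2.03%). Of the called genes, 27 of the 28 higher and 18 of the 21 lower ones had groups that did not overlap. The higher genes were mostly scarce: 12 of the 28 had no count in any NestinTK- library and 4 more had 1 to 3 counts in the 3 libraries together, and 9 reached a mean of 10 CPM in NestinTK+ mice. Among the lower genes 0 of 21 were without counts in the NestinTK+ mice and 17 reached a mean of 10 CPM in NestinTK- mice. A gene with counts in NestinTK+ mice alone passes the filter with 3 of 4 libraries above 1 CPM. One with counts in NestinTK- mice alone needs all 3, so that these counts cannot be compared between the directions. All 21 lower genes were protein coding, as were 16 of the 28 higher ones.

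**Figure D2:**
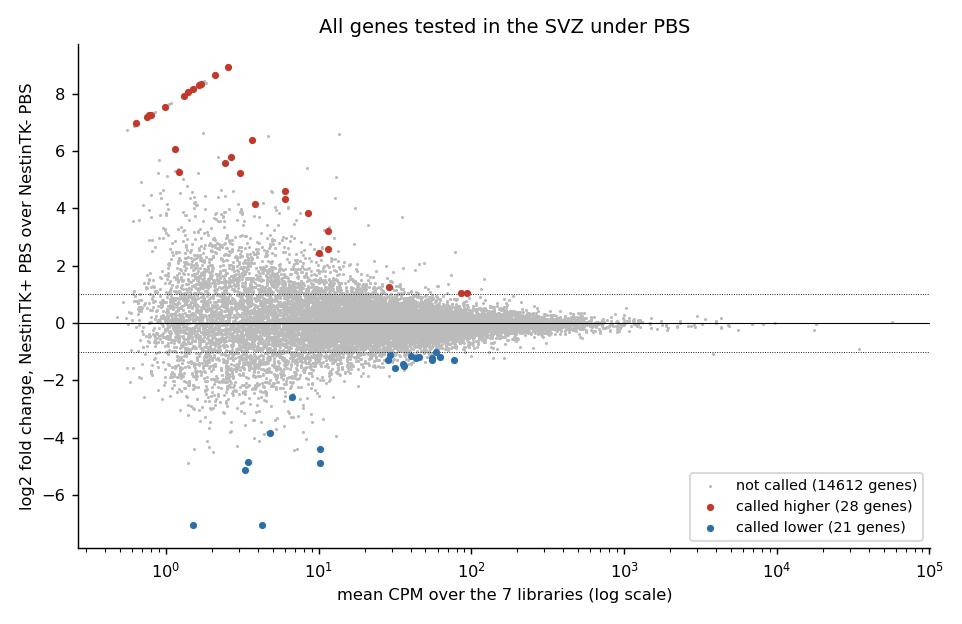
Log2 fold change between NestinTK+ PBS and NestinTK- PBS (y axis) against mean CPM over the 7 libraries (x axis, log scale) for the 14661 genes tested. Called genes are coloured (28 higher in red, 21 lower in blue), the dotted lines mark a 2-fold change, and the oblique row of red points at the top left are genes with no count in NestinTK- mice, whose fitted fold change is not a bound.

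The 12 named genes called higher are single genes that the rule picked, not a pathway. Cebpd encodes the transcription factor C/EBP delta, which is induced in inflammation and in reactive astrocytes (chromosome 16, 15887286 to 15891031 of GRCm38, plus strand). It had 7.94, 8.47, 8.68 and 15.9 CPM in T1 to T4 and 0.453, 0.380 and 0.335 CPM in W1 to W3. Every NestinTK+ mouse thus lay far above every NestinTK- mouse, with a log2 fold change of 4.59 (standard error 0.99, 95% interval 2.40 to 6.78). It was called without each library in turn and in 12 of the 13 other settings, and over all settings its log2 fold change was 4.35 to 4.89. Without T1, W1 and W2, which leaves 1 NestinTK- library, it was 4.89 and not called. Its exons share 15.0% of their bases with Spidr on the opposite strand.

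Prex1 and Zcchc11 were the more abundant members of the higher group. Prex1, an exchange factor that activates the GTPase Rac (chromosome 2, 166566342 to 166713832, minus strand), had 83.4, 118.2, 95.6 and 146.9 CPM in T1 to T4 and 39.2, 60.8 and 52.0 CPM in W1 to W3, a log2 fold change of 1.05 (standard error 0.26). Zcchc11, a terminal uridylyltransferase that adds uridines to RNA, had 34.1 to 43.7 CPM in NestinTK+ and 12.5 to 19.4 CPM in NestinTK- mice and a log2 fold change of 1.27 (standard error 0.38). Both groups were apart in both genes, yet when each of the 7 libraries was left out once, Zcchc11 was called 2 times and Prex1 5 times, being lost without W1 and without T4.

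Alg1, the mannosyltransferase that adds the first mannose in N-glycan synthesis (chromosome 16, 5233621 to 5244912, plus strand), had 12.5, 12.2, 20.7 and 30.0 CPM in T1 to T4 and 1.36, 3.61 and 0.671 CPM in W1 to W3, a log2 fold change of 3.19 (standard error 0.82). Cenpe, a kinesin of the kinetochore that dividing cells use in mitosis (chromosome 3, 135212537 to 135273611, plus strand), had 2.08, 12.1, 9.34 and 17.3 CPM against 0.603, 0.522 and 0.224 CPM, a log2 fold change of 4.34 (standard error 1.13). Without T4, the highest library in both, neither Alg1 nor Cenpe was called, and Alg1 was not called without W1. Ifitm10, a gene of the family of interferon-induced transmembrane proteins (chromosome 7, 142325837 to 142373753, minus strand), was also lost without T4 or W1, and had 5.79, 8.15, 7.48 and 35.6 CPM in T1 to T4 against 0.830, 1.38 and 0.447 CPM, a log2 fold change of 3.84 (standard error 1.02).

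Gpr176, an orphan receptor coupled to G proteins (chromosome 2, 118277110 to 118373419, minus strand), had 8.23, 30.4, 17.1 and 16.2 CPM in T1 to T4 and 2.57, 2.28 and 3.80 CPM in W1 to W3, a log2 fold change of 2.57 (standard error 0.71). Chodl, the membrane lectin chondrolectin (chromosome 16, 78930948 to 78951733, plus strand), had 7.12, 9.10, 3.68 and 5.86 CPM against 0.302, 0.285 and 0.447 CPM, a log2 fold change of 4.14 (standard error 1.16). In both genes the groups were apart, and each was called 3 of 7 times when 1 library was left out.

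For 4 of the named higher genes the NestinTK- mice gave almost no reads, and the ratio of CPM over the summed counts of each group is given in place of a fitted fold change, with a 95% interval that covers counting error only. Pex11g, which takes part in the division of peroxisomes (chromosome 8, 3457105 to 3467680, minus strand), had 3.04 to 8.87 CPM in NestinTK+ mice and 2 counts in NestinTK- mice, all in W3 (135-fold, interval 37.0 to 1116), and 41.1% of its exon bases lie opposite Gm44775 on the other strand. Myo1f, a myosin of myeloid cells (chromosome 17, 33555707 to 33607764, plus strand), had 2.23, 3.29, 3.92 and 8.87 CPM in T1 to T4 and 3 counts in NestinTK- mice (64.8-fold, interval 21.9 to 316). Panct2, an antisense transcript (chromosome 1, 96871126 to 96907796, plus strand), had 1.41 to 3.44 CPM against 1 count (90.5-fold, interval 15.9 to 3605). Vil1, the microvillus protein villin (chromosome 1, 74409376 to 74435559, plus strand), had 1.19, 1.57, 0.904 and 1.58 CPM in T1 to T4 and no count in NestinTK- mice, which is at least 18.5-fold higher with 3 counts set for the group. Over the 12 called genes without counts in NestinTK- mice this lower limit ranged from 16.4-fold for 3300002I08Rik to 65.0-fold for Eaf2, and Eaf2 was itself at 0 in T1. When each library was left out once, Pex11g was called 6 of 7 times and Panct2 5 times. Vil1 was called in each of the 4 fits in which it passed the filter, and in 4 of the 13 other settings.

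The 12 named genes called lower are also single genes of unlike roles. Cpt1b is the muscle form of carnitine palmitoyltransferase 1, which controls the entry of long-chain fatty acids into mitochondria (chromosome 15, 89416405 to 89425863, minus strand). It had 10.1, 9.07 and 10.2 CPM in W1 to W3 and 0.0742, 0, 0.181 and 0 CPM in T1 to T4, and of all genes tested it had the lowest p (log2 fold change -7.06, standard error 1.40, 95% interval -10.17 to -3.95). The NestinTK- mice were alike and the NestinTK+ mice near or at 0. In the annotation used here 81.4% of its exon bases are shared with a readthrough gene of the same strand, Gm44502, which has no row in the count table, so that the reads of such a transcript cannot be told from those of Cpt1b. It was called in each of the 4 fits without a NestinTK+ library and did not pass the filter in the 3 without a NestinTK- library. With the mouse number series as a covariate its log2 fold change was -5.75 over 7 libraries and -6.21 over 15, and it was called in neither, nor without T1, W1 and W2 (-7.16).

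Hibadh, an enzyme of valine breakdown (chromosome 6, 52546228 to 52640389, minus strand), was the most abundant of the named lower genes. It had 149.7, 96.6 and 91.6 CPM in W1 to W3 and 36.1, 39.7, 49.3 and 71.9 CPM in T1 to T4, a log2 fold change of -1.28 (standard error 0.29), and was called without each library in turn. It was not called in the fit of all 15 SVZ libraries, with the mouse number series as a covariate or without T1, W1 and W2 (log2 fold change -0.88). Cebpd, Myo1f and Hibadh were the 3 of the 24 named genes that were called without each library in turn. Mrpl40, a protein of the mitochondrial ribosome (chromosome 16, 18872018 to 18876862, minus strand), had 89.4, 52.6 and 56.6 CPM in W1 to W3 and 35.8, 29.4, 27.4 and 27.8 CPM in T1 to T4, a log2 fold change of -1.19 (standard error 0.32). Gfpt2, a rate-limiting enzyme of hexosamine synthesis (chromosome 11, 49794178 to 49838613, plus strand), had 14.4, 3.51 and 12.4 CPM against 0.371, 0.706, 0.301 and 1.66 CPM, a log2 fold change of -3.83 (standard error 1.07). Naaa, which hydrolyses N-acylethanolamines (chromosome 5, 92257659 to 92278170, minus strand), had 67.1 to 88.8 CPM in NestinTK- and 18.8 to 51.8 CPM in NestinTK+ mice, a log2 fold change of -1.23 (standard error 0.36). With 1 library left out, Gfpt2 and Naaa were called 2 of 7 times and Mrpl40 6 times, all but without W1.

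Of the signalling genes, Jag2, a ligand of Notch receptors (chromosome 12, 112907819 to 112929776, minus strand), had 50.01, 30.0 and 85.7 CPM in W1 to W3 and 25.4, 21.8, 17.4 and 20.8 CPM in T1 to T4, a log2 fold change of -1.42 (standard error 0.40). The NestinTK- mice varied widely among themselves, and without W3 the log2 fold change was -0.98 and not called. Npr2, the receptor of C-type natriuretic peptide (chromosome 4, 43631935 to 43651244, plus strand), had 48.2, 39.9 and 63.9 CPM against 29.1, 15.5, 10.9 and 14.5 CPM, a log2 fold change of -1.57 (standard error 0.43). Tnfaip8l2, which restrains signalling in immune cells (chromosome 3, 95139521 to 95142360, minus strand), had 12.7, 3.89 and 5.70 CPM against 0.223, 0.314, 0.301 and 0 CPM, a log2 fold change of -5.12 (standard error 1.36). With 1 library left out, Jag2 was called 3 of 7 times and Npr2 2 times, and Tnfaip8l2 in each of the 4 fits in which it passed the filter.

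The other 4 named lower genes were Wdr27, Fhdc1, Leng8 and Cep120. Wdr27, a protein of WD repeats (chromosome 17, 14818519 to 14943158, minus strand), had 7.77, 1.90 and 13.4 CPM in W1 to W3 and 0.235 to 0.301 CPM in T1 to T4, a log2 fold change of -4.85 (standard error 1.18). Fhdc1, a formin that acts on actin and microtubules (chromosome 3, 84442198 to 84480429, minus strand), had 12.3, 12.3 and 42.1 CPM against 2.08, 0.549, 1.57 and 0 CPM, a log2 fold change of -4.39 (standard error 1.18). Leng8 (chromosome 7, 4137039 to 4148177, plus strand) had 74.1 to 87.3 CPM in NestinTK- and 28.3 to 53.2 CPM in NestinTK+ mice, a log2 fold change of -1.02 (standard error 0.28), and Cep120, a protein of the centriole, had 44.6 to 92.3 and 20.6 to 36.05 CPM and a log2 fold change of -1.23 (standard error 0.35). Leng8 lay just past the 2-fold threshold, and with libraries scaled by their totals alone it was not called. When each library was left out once, Leng8 was called 2 of 7 times, Cep120 3 times and Fhdc1 5 times. Wdr27 was called in each of the 4 fits in which it passed the filter.

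**Figure D3:**
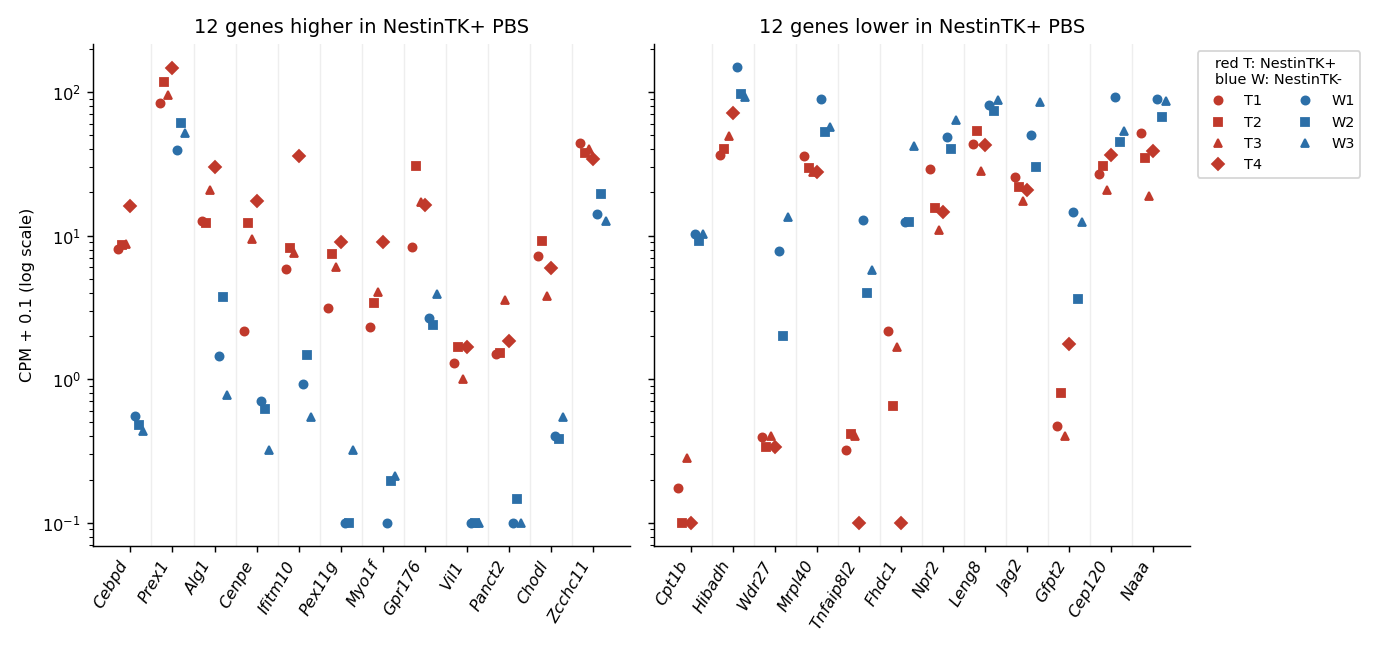
CPM + 0.1 (y axis, log scale) of the 12 named genes higher (left) and the 12 lower (right) in NestinTK+ PBS mice, with 1 point per library (T1 to T4 in red, W1 to W3 in blue). The groups are apart in each of the 24 genes by the rule that chose them, and points at 0.1 are libraries with no count, such as the 3 NestinTK- libraries for Vil1.

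The genes closest to the transgene were not called. Endogenous mouse Nes had 9.27, 11.0, 8.02 and 13.3 CPM in T1 to T4 and 15.2, 7.98 and 11.3 CPM in W1 to W3, with overlapping groups and a log2 fold change of -0.22 (95% interval -1.54 to 1.10). The 8 tested intermediate filament genes had a median of -0.071 with 0 called. Of 20 genes that make or salvage nucleotides, the metabolism in which thymidine kinase acts, 18 were tested, 0 were called and 11 were above 0, with a median log2 fold change of 0.12. Tk1, the cytosolic thymidine kinase of dividing cells, had 2.67, 0.549, 6.81 and 0 CPM in T1 to T4 and 0, 7.79 and 3.69 CPM in W1 to W3, which leaves an interval of the log2 fold change of -4.67 to 3.37. Tk2, its mitochondrial counterpart, had 22.3 to 48.9 and 9.13 to 37.8 CPM and a log2 fold change of 0.71 (95% interval -0.41 to 1.84). The highest genes of this list in NestinTK+ mice were Nt5m (41.1 CPM on average) and Dtymk (39.3 CPM), with log2 fold changes of -0.43 and 0.04. With 0 to 6.81 CPM among NestinTK+ and 0 to 7.79 CPM among NestinTK- mice, a difference in Tk1 cannot be told from none. Of 23 genes of the p53 response and apoptosis 21 were tested, with 0 called and a median of -0.024. Without T1, W1 and W2, which leaves 1 NestinTK- library, the median of these genes was 0.78. Plk2 and Zmat3, the highest of them, had log2 fold changes of -0.24 and 0.08.

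Along the neurogenic lineage 1 gene of the stage lists was called. As 0.334% of all genes tested were called, a count of 0 in lists of this size does not set them apart from other genes. Here, as in any bulk sample, fewer cells of a type and less RNA per cell cannot be told apart. In the neuroblast list 22 genes were tested and 0 called, and their median log2 fold change was 0.24, with 13 above 0. Dcx, a microtubule protein of migrating neuroblasts, had 30.6, 114.3, 78.0 and 37.9 CPM in T1 to T4 and 68.0, 37.7 and 47.7 CPM in W1 to W3, a log2 fold change of 0.28 (95% interval -0.73 to 1.29). The NestinTK+ mice thus spanned a wider range than the NestinTK- mice and enclosed it. Gad2 and Tubb3, the highest genes of the list, had log2 fold changes of 0.19 and 0.29. In the GCV-treated mice, NestinTK+ against NestinTK-, they had 0.17 and -0.27, and 17 of the 22 genes were below 0. Stmn2, which regulates microtubules in growing neurites, was the 1 gene of the list with an unadjusted p under 0.05, and showed a log2 fold change of 0.81 (standard error 0.31). Without T2 the median of the list was -0.015, without W3 it was 0.51, and with the level of Ttr as a covariate -0.20.

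Of 25 genes of dividing cells 23 were tested, and the median log2 fold change was -0.13. Its sign turned with the libraries, from -0.32 without T2 to 0.31 without W3. Without T1, W1 and W2, which leaves 1 NestinTK- library, the median was 1.44. Cenpe was the 1 gene called in this list, and in all 29 lists together. Top2a and Mki67, the most abundant members in NestinTK- mice, had log2 fold changes of -0.55 (standard error 0.76) and -1.13 (standard error 1.05). Top2a, a topoisomerase of replicating cells, had 21.4, 35.2, 33.5 and 4.44 CPM in T1 to T4 and 8.83, 22.7 and 70.0 CPM in W1 to W3, so that mice of both genotypes were among the highest and the lowest. The list's summed level was 84.6 to 236 CPM in NestinTK+ and 120 to 225 CPM in NestinTK- mice. Among 12 genes of activated stem and transit-amplifying cells 0 were called, with a median of -0.055. Sox2 and Gadd45g, the highest of them, had log2 fold changes of -0.02 and -0.09. Notch1, a Notch receptor of stem cells and progenitors, showed a log2 fold change of -1.64 (standard error 0.60, unadjusted p under 0.05), the largest of that list. It had 16.9, 20.9, 27.7 and 11.6 CPM in T1 to T4 and 29.5, 19.6 and 125.4 CPM in W1 to W3, with overlapping groups and W3 far above the rest. In 31 tested genes of niche signalling, to which Notch1 also belongs, 0 were called and the median was 0.055. Id4 and Id2, the highest of these, had log2 fold changes of 0.15 and 0.01.

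Genes of the glia and of the ventricular wall did not reach the call either. Of the ependymal list, the ciliated cells that line the ventricle, 23 genes were tested and 0 called, with a median log2 fold change of -0.27. It was 0.15 without W1 and 0.26 without T1, W1 and W2. Drc1, a part of the regulatory complex of motile cilia, showed a log2 fold change of -1.02 (standard error 0.42, unadjusted p under 0.05), and Foxj1, the transcription factor of motile cilia, had -0.52 (standard error 0.41). Among 16 astrocyte genes 0 were called and the median was 0.053. Slc1a2, Clu and Aldoc, the highest of them, had log2 fold changes of 0.06, -0.21 and 0.04, with standard errors of 0.17 to 0.22. The oligodendrocyte list (18 tested, median 0.10), the list of their precursors (10, median 0.32), the microglia list (16, median 0.14) and the 5 tested genes of microglia activation (median 0.31) held 0 called genes each. Mbp and Cnp, proteins of myelin, had log2 fold changes of 0.08 and -0.14, and Csf1r, a receptor of microglia, 0.33. Among 17 endothelial genes (median 0.11) and 9 mural genes (median -0.082) 0 were called.

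All 25 genes of the choroid plexus list were below 0, with a median log2 fold change of -0.91 and 0 called (lowest p 0.368). Ttr had 98259, 1.33, 789.4 and 211.2 CPM in T1 to T4 and 44878, 98809 and 108.9 CPM in W1 to W3, and its log2 fold change of -0.92 had a standard error of 2.26. High and low libraries occurred in both genotypes, as 1 of 4 NestinTK+ and 2 of 3 NestinTK- mice. Without T1, W1 and W2 the median of the list was 4.04, on 3 NestinTK+ and 1 NestinTK- library. The lists whose level followed the same libraries behaved alike. The 25 tested genes of interferon response and antigen presentation had a median of -0.67 with 19 below 0, the 11 of meningeal fibroblasts -0.49 with 10 below 0, and the 16 of the IGF axis -0.18 with 11 below 0. In these lists 0 genes were called, and without the 3 libraries the medians were 1.82, 2.66 and 0.44. Among single genes, H2-Eb1, which presents antigen, showed a log2 fold change of -3.35 (standard error 1.44), and Lum, a proteoglycan of the meninges, -3.47 (standard error 1.52), both with an unadjusted p under 0.05. The part of the libraries' tissue content in these values was not tested beyond leaving them out.

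Among the 29 lists, genes of spiny neurons and of the mitochondrial genome had the lowest median standard errors (0.22 and 0.16). The 19 spiny neuron genes had a median log2 fold change of -0.070, from -0.39 to 0.77, and for 18 of them the 95% interval lay within a 2-fold change either way. Ppp1r1b, Penk and Arpp21, the highest of them, had -0.09, -0.10 and -0.07. The 7 tested mitochondrially encoded genes had a median of -0.044, with every interval within 2-fold, and mt-Cytb and mt-Nd1, the highest, had -0.04 and -0.03. The median was 0.14 over 12 genes of striatal interneurons, 0.29 over 6 of cortical excitatory neurons, -1.14 over 5 of blood, -0.062 over 13 of heat shock and -0.14 over 17 of the circadian clock. Immediate early genes, which neuronal activity and handling induce, had a median of 0.27 over 25 tested genes, with Egr1 and Homer1 at 0.20 and 0.12. All of these lists held 0 called genes.

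The study names 10 genes as lower and 10 as higher in the SVZ after ablation. They were chosen on a contrast of the NestinTK+ GCV mice with controls that held the 7 PBS libraries and the NestinTK- GCV mice. Their values under PBS are therefore a description, and those under GCV and in the interaction restate that choice. All 10 lower genes and 4 of the higher ones were tested, and 0 of the 14 were called under PBS. The 10 lower genes had a median log2 fold change of -0.097, with 5 above and 5 below 0. In the GCV-treated mice, NestinTK+ against NestinTK-, their median was -4.98 with 6 of 10 called, also with the 2 genes without counts in NestinTK+ GCV mice, Prokr2 and Slc16a12, at their lower limit. Igfbpl1, a secreted protein of the IGF-binding family (chromosome 4, 45809468 to 45826923, minus strand), had 6.60, 35.4, 3.14 and 39.7 CPM in T1 to T4 and 8.68, 14.6 and 5.70 CPM in W1 to W3. T2 and T4 were above every NestinTK- mouse and T3 below, and the log2 fold change was 1.01 (standard error 0.85, 95% interval -0.87 to 2.89). With the mouse number series as a covariate over 7 libraries it was -1.69. In GCV-treated mice it was -6.60 and the interaction of genotype and treatment -7.64, which was called. Prokr2, a receptor of migrating neuroblasts, had 6.82, 11.9, 12.1 and 6.10 CPM in T1 to T4 and 2.04, 1.90 and 10.7 CPM in W1 to W3, a log2 fold change of 0.87 under PBS. In GCV-treated mice it had no count in NestinTK+ mice and 3.61 to 13.3 CPM in NestinTK- mice, which is at least 154-fold lower with 3 counts set for the group. The others were between -1.49 (Pbk, which dividing cells express) and 0.87 (Sp8, a transcription factor of interneuron precursors). Hfe, which controls iron uptake, had -1.07 and Slc16a12, a creatine transporter, -0.70. Ccdc114, a gene of motile cilia, had 0.71, Rhpn2 0.04 and Pimreg, a mitotic regulator, -0.24. Of the higher genes, Pcdhga12 had -0.97, Mtm1 0.10, Tfpi 0.71 and Col26a1 1.57, with standard errors of 1.40 to 1.92.

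The genes called under PBS were then looked up in the GCV-treated mice, which share no library with the PBS comparison. There, 32 genes (0.218%) were called higher and 49 (0.334%) lower among the same 14661, or 0.552% in either direction. At an adjusted p under 0.05 edgeR called 0, with 666 (4.54%) at an unadjusted p under 0.05, and DESeq2 called 20 and limma-voom 0. Of the 28 genes higher under PBS 15 had the same sign in GCV-treated mice, 0 were called the same way and 1, Gm10069, was called the opposite way. Of the 21 lower genes 7 had the same sign and 0 were called, while 51.8% of all 14661 genes were above 0 under GCV. Among these 7, Hibadh had 4.19 to 53.5 CPM in NestinTK+ and 59.2 to 75.2 CPM in NestinTK- GCV mice. The median log2 fold changes of the higher and lower genes were 5.93 and -1.42 under PBS and 0.24 and 0.37 under GCV. With genes that lack counts in a group at their lower limit, the median of the higher genes was 4.59 under PBS. The interaction of genotype and treatment, fitted over all 15 SVZ libraries, was called in 89 genes (0.607%), of which 8 were among the higher and 4 among the lower genes, and the PBS difference itself enters this term. At an unadjusted p under 0.05 it reached 634 genes (4.32%). Cebpd was high in NestinTK- mice under GCV, with 14.2, 5.03 and 16.8 CPM, against 0.12 to 3.55 CPM in NestinTK+ GCV mice. Cpt1b reached 16.2 and 4.19 CPM in 2 of the 5 NestinTK+ GCV mice. Both genes thus occurred at the high level in each genotype, in different treatment groups.

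In the striatum of the same 7 mice 14065 genes were tested, of which 54 (0.384%) were called higher and 9 (0.064%) lower in NestinTK+ mice, or 0.448% in either direction. At an adjusted p under 0.05 edgeR, DESeq2 and limma-voom called 0, with 584 (4.15%) at an unadjusted p under 0.05 by edgeR. Of the SVZ genes, 15 of the 28 higher ones were tested there, with 5 of the same sign and 0 called. Of the 21 lower ones 16 were tested, with 8 of the same sign and 0 called. Over the 12964 genes tested in both tissues, 49.4% were above 0 in the striatum. Cebpd had a log2 fold change of -0.10 in the striatum, Prex1 -0.12, Alg1 -0.09 and Hibadh 0.34. Cpt1b, Wdr27, Tnfaip8l2, Pex11g and Vil1 did not pass the filter there. Library preparation differed between the tissues, so that levels are not compared.

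**Figure D4:**
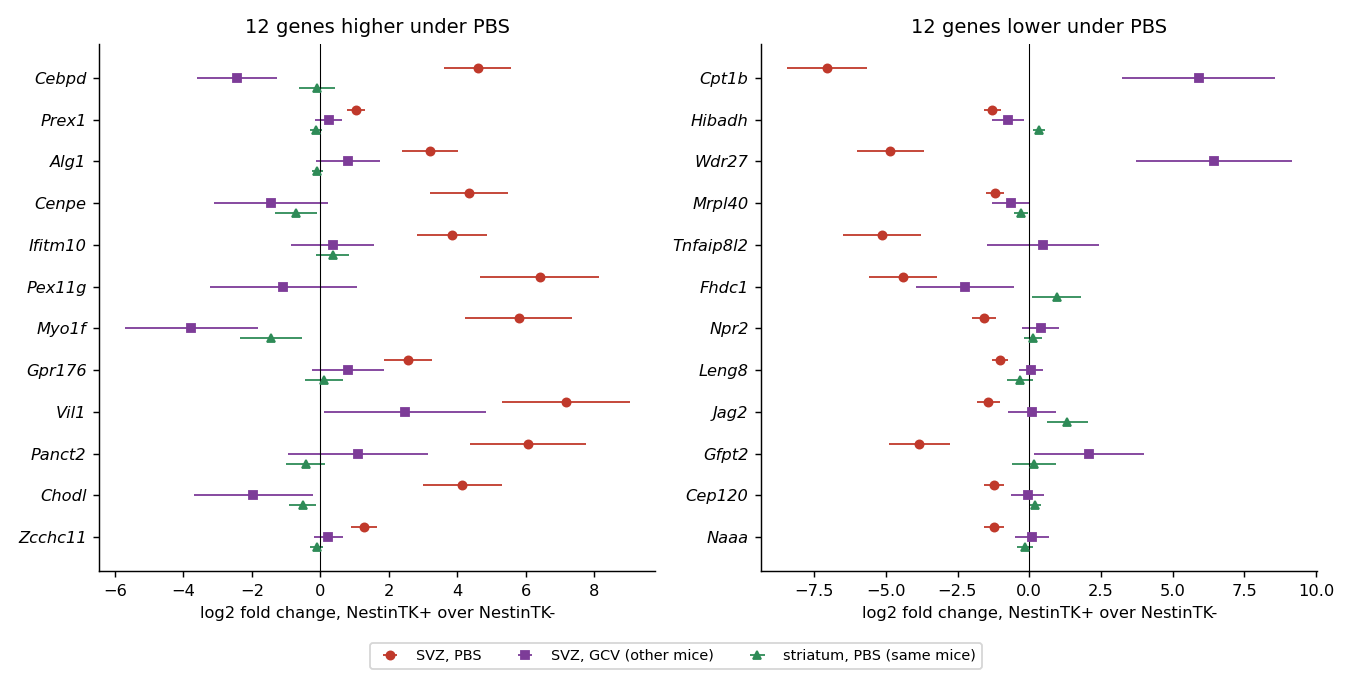
Log2 fold change with its standard error (x axis) of the 12 named genes higher (left) and 12 lower (right) under PBS, for the SVZ under PBS (red circles), the SVZ under GCV in other mice (purple squares) and the striatum of the same PBS mice (green triangles, where tested). Cebpd goes from 4.59 under PBS to -2.44 under GCV and -0.10 in the striatum, and Cpt1b from -7.06 to 5.91.

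How large a transgene effect the intervals excluded depended on the level of the gene. Over all 14661 genes the median standard error of the log2 fold change was 0.57, and for 3508 genes (23.9%) the 95% interval lay within a 2-fold change in either direction. Above a mean of 100 CPM this was so for 1706 of 1896 genes (90.0%), and 0 genes of that level were called. Between 10 and 100 CPM it was so for 1802 of 7901 genes (22.8%), between 1 and 10 CPM for 0 of 4654, and at or under 1 CPM for 0 of 210. Of the 23 tested genes of dividing cells it was so for 0, and of the 22 genes of the neuroblast list for 4, Gad2, Tubb3, Robo2 and Pbx3. A 2-fold difference could thus not be excluded for most of them at this depth and spread.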

How the data were processed

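RNA of the SVZ and striatum was sequenced from 15 mice, 1 library per mouse and tissue. For each tissue the authors deposited a table of read counts per gene, not normalized. Per the labels and the study's methods, the SVZ was dissected and frozen, SMART-Seq v4 (10 cycles) served for its libraries, and QuantSeq 3′ FWD for those of the striatum. Reads were single-end. They passed through Trimmomatic (0.36 in the submitters' processing notes), were aligned to mm10 with STAR 2.5.3a and counted with featureCounts. The strand setting is not given in the sources used here, so that reads of overlapping genes on opposite strands cannot be told apart. Reads carry no molecular identifiers, so that counting intervals cover counting error only.

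Groups were taken from the labels, and replicate numbers within a group follow accession order and pair no mice between groups. SVZ and striatum libraries of the same mouse share a mouse number. Genes with more than 1 CPM in 3 or more of the 7 libraries were scaled by TMM factors and tested by edgeR 4.0.16 in R 4.3.3 (glmQLFit, glmQLFTest) on these libraries alone, and p-values were adjusted by Benjamini-Hochberg over the tested genes. The study names limma. A gene was called where its unadjusted p was not above 0.01 and its change 2-fold or more. The GCV-treated mice and the interaction were fitted on the same genes, and the striatum apart. A group without counts was set to 3 counts over its libraries for a lower limit. Alternatives were DESeq2 1.42.0, limma-voom (limma 3.58.1), other scalings and filters, the mouse number series or Ttr as a covariate, and libraries left out. The fit was tested on simulated data. Library measures were compared by exact permutation (scipy 1.17.1). The CPM scaled by TMM factors, and the lists without T1, W1 and W2, were added after seeing the data.

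In each direction the 12 called genes of lowest p whose CPM did not overlap are named, leaving out Gm, Rik and clone symbols (11 higher and 1 lower), together with genes at an adjusted p under 0.05 in any tool, members of a described list that were called, had a p under 0.05 or were highest in CPM, and the study's ablation genes. Some genes that this rule names are not reported here. Gm10069, Gm44502, Eaf2 and 3300002I08Rik were named after their values were seen. The genes, the 29 lists and the comparison were chosen with earlier results of these data known. Positions come from GENCODE vM21 (GRCm38), which matched 14427 of the 14661 symbols (98.4%), and 11 of 23 named genes with a position share exon bases with another gene, 4 of them on the same strand. The labels do not say that mice of a group came from separate litters or were prepared apart, so that p-values measure the spread between these samples.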

Additional observations from a re-analysis of the deposited data

Results flagged for a closer look

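In 48 sets of 4 NestinTK+ PBS values (library measures and named or described genes) the highest or lowest library was compared with the range of its group, a rule by which chance flags about 1 in 20, and 2 were found. Cebpd in T4 had 15.9 CPM, against 7.94 to 8.68 CPM in T1 to T3. The share of Ttr in T1 was 9.83%, against at most 0.0789% in T2 to T4. The interaction of genotype and treatment, which asks whether the genotype difference under GCV differs from that under PBS, passed a nominal p of 0.01 and a 2-fold change in 9 of the genes described. On the log2 scale it was -7.03 for Cebpd, -9.54 for Myo1f, 13.01 for Cpt1b and 11.38 for Wdr27, which were called under PBS. It was -7.64 for Igfbpl1, -10.67 for Prokr2, -5.77 for Pimreg, 4.71 for Pcdhga12 and 6.49 for Mtm1, which were not. The study had named these uncalled genes on a contrast that held the NestinTK+ GCV mice. All of the interaction values are fitted. That of Prokr2, which has no count in NestinTK+ GCV mice, depends on the prior count and is no bound. The library numbers of GCV-treated mice all precede those of PBS-treated mice, so that treatment and order of numbering cannot be told apart in this term.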

How the results depend on the processing

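Under PBS, where 28 genes were called higher and 21 lower, the counts were 59 and 103 without a filter on low counts, 91 and 54 with DESeq2 (3 at an adjusted p under 0.05), 14 and 12 with the mouse number series as a covariate over 15 libraries, 313 and 160 without T1, W1 and W2, and 0 and 0 with an adjusted p under 0.05 as threshold. limma-voom called 5 higher, the series as a covariate over 7 libraries gave 8 higher, and the fit of all 15 libraries 8 lower. Of the 28 and 21 genes DESeq2 shared 23 and 20 and limma-voom 5 and 11. For GCV the counts were 96 and 125 without a filter, limma-voom called 117 lower, DESeq2 160 higher and 20 at an adjusted p under 0.05, and the adjusted threshold left 0 and 0. For the interaction they were 283 and 249 without a filter (1 at an adjusted p under 0.05), 129 and 66 with DESeq2 (20), 86 lower with limma-voom and 0 and 0 with the adjusted threshold. For the striatum they were 151 higher and 21 lower without a filter (105 at an adjusted p under 0.05), 35 higher with a mean of at least 10 counts, 20 higher with limma-voom, 14 lower with DESeq2 and 0 and 0 with the adjusted threshold. The cause of these shifts was not tested.

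With 1 library left out, the higher and lower genes ranged from 17 to 171 and 10 to 92 under PBS (0 at an adjusted p under 0.05), 19 to 56 and 24 to 78 under GCV, 32 to 87 and 25 to 80 for the interaction, and 24 to 72 and 5 to 20 in the striatum, the interaction and the striatum with 0 to 1 at an adjusted p under 0.05. The differences in library measures, NestinTK+ minus NestinTK-, ranged from -3.29 to 2.76 M counts, from -6.75 to 2347 genes detected, from -0.049 to 1.20 percentage points of mitochondrial counts and from -4.76 to 0.232 of Ttr. The labels pair no mice between the groups compared, so that no paired test of genotype was run. SVZ and striatum libraries pair by mouse number, and the tissues were fitted apart.

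Of the genes called and named, 0 changed sign in any setting. They were chosen for groups that did not overlap, so that this is no test of them. Genes that were not called changed sign as follows (log2 fold change). limma-voom gave Rhpn2 -0.62 and Mtm1 -0.044. The mouse number series as a covariate over 15 libraries gave Ttr 0.73, Xist 0.028, Hfe 0.72, Pimreg 0.19 and Tfpi -1.81, and over 7 libraries Tk1 0.76, Tk2 -0.0402, Igfbpl1 -1.69, Xist 0.21, Pimreg 0.82, Rhpn2 -0.44, Sp8 -0.37, Pcdhga12 0.39, Mtm1 -2.36 and Tfpi -1.57. Without T1, W1 and W2, Ttr was 1.55, Prokr2 -0.17, Pbk 2.67 and Rhpn2 -0.38. Ttr as a covariate gave Dcx -0.17 and Sp8 -0.43. With 1 library left out, Nes ranged from -0.41 to 0.035, Pimreg from -0.89 to 0.22, Tk1 from -1.82 to 0.44, Ttr from -7.28 to 0.19, Slc16a12 from -2.57 to 0.79, Pbk from -2.27 to 0.83, Top2a from -1.002 to 0.52, Rhpn2 from -0.88 to 0.39, Mtm1 from -0.47 to 0.44 and Dcx from -0.14 to 0.54.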

Other observations

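Chromosome 16 held 7 of the 49 called genes among its 433 tested genes (1.62%, against 0.334% of all genes tested and at most 0.663% on any other chromosome). This was seen in the data and not asked of them. Alg1, Cebpd, Chodl, Eaf2 and Gm10785 were higher and Mrpl40 and Fbxo45 lower in NestinTK+ mice. They lie from position 5233621 to 91715642 of the chromosome. None of the 7 was called in GCV-treated mice. In the striatum Eaf2 and Gm10785 were not tested, and none of the others was called. Fbxo45, a part of an E3 ubiquitin ligase of neurons, had 50.2, 34.8 and 88.5 CPM in W1 to W3 and 25.4, 23.4, 28.5 and 31.6 CPM in T1 to T4, a log2 fold change of -1.15 in the SVZ under PBS and -0.05 in the striatum.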
